A study of Homo sapiens with 6 samples.

Results

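Glutathione S-transferases, the enzymes that join the tripeptide glutathione to reactive compounds, were followed in LoVo colorectal cancer cells after knockdown of LGR5. The 10 genes were chosen by name, with earlier results of these data known. These were the cytosolic enzymes GSTP1, GSTO1, GSTM2, GSTM3, GSTM4 and GSTZ1, the organelle enzyme GSTK1, and the membrane enzymes MGST1, MGST2 and MGST3. They are covered by 17 of the 47323 probes, and 15 of these were measurable, at least 1 for each of the 10 genes. LoVo is an established human colorectal adenocarcinoma line. Cells were stably infected with a lentivirus and grown in puromycin, so all groups carry an integrated vector. The groups are a line with hairpin shLGR5-2, a line with hairpin shLGR5-1, each directed against LGR5 mRNA, and a pLKO.1 control line (shCTL), with 2 Illumina bead arrays each. The labels do not say whether each line was a clone or a pool of infected cells.

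Glutathione S-transferases fall into several families. The soluble enzymes, in classes named pi, mu, omega and zeta among others, and the kappa enzyme work as dimers, while the microsomal enzymes sit in membranes and belong to a family that also makes prostaglandins and leukotrienes. Conjugation with glutathione makes electrophiles water-soluble, the conjugates leave the cell through ABCC pumps, and many of the genes are known targets of the transcription factor NRF2, which binds antioxidant response elements. In colon tumours GSTP1 is known as an abundant member and is studied in relation to drug resistance.

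Promoter windows are shown for the genes whose windows held the core of the antioxidant response element and for MGST1, which fell with both hairpins. The windows are the 250 bases before an annotated start, from RefSeq (GRCh38.p14), 5′ to 3′ on the gene's strand, and 9 of the 10 genes matched an entry (MGST2 did not), with 11 windows in all. Capitals mark TGACNNNGC, searched on both strands.
GSTP1 (chr11:67583562-67583811, plus strand): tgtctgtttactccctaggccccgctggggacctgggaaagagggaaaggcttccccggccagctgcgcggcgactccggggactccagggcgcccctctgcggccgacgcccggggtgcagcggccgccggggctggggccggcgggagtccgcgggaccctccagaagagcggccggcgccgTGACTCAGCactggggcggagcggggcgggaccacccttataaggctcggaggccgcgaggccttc
GSTO1 (chr10:104254642-104254891, plus strand): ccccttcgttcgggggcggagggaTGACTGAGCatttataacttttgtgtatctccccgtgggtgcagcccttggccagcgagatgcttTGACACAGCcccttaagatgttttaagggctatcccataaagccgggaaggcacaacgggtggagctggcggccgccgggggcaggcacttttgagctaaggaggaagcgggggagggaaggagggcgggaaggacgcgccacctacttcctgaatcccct
MGST1, first start (chr12:16346865-16347114, plus strand): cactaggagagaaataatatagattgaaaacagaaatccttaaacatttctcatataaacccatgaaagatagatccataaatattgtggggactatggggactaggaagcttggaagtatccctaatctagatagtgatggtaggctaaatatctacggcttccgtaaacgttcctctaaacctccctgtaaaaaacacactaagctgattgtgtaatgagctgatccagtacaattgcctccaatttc
MGST1, last start (chr12:16347528-16347777, plus strand): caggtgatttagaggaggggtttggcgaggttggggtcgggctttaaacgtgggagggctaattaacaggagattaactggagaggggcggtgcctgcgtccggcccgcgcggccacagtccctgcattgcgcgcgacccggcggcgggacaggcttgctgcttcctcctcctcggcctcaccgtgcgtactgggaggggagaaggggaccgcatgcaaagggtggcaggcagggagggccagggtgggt
The match in GSTP1 begins at base -66, counting back from -1 just before the start, and those in GSTO1 begin at -226 and -161. Of the 11 windows 2 held TGACNNNGC, against 10.9% of 35116 promoter windows of the same length. The TCF/LEF core CTTTGAT, also searched on both strands, was in 0 of the 11 windows and in 2.26% of all, so no motif overlapped another of the other kind. A match describes letters in the window and says nothing of binding.

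Values are the authors' normalized intensities on a linear scale, with a noise threshold of 16.5, and 16 was added before taking log2 fold changes, which are given with a standard error (SE) for n = 2 against 2 arrays. On each array 20641 to 20705 probes exceeded the threshold, and 12111 genes were tested with limma, a gene being called at an adjusted p below 0.05. The labels name no separate cultures for the 2 arrays of a group; the p-values reflect the spread of these arrays alone, and that spread may be technical. LGR5, the target, read 12.5 and 19.2 with shLGR5-2, -1.1 and 7.0 with shLGR5-1, and 44.4 and 49.2 in shCTL. All 4 knockdown arrays were lower than both controls. With shLGR5-1 LGR5 was at least 2.84-fold lower, a bound taken without the offset (limma adjusted p = 0.00167). With shLGR5-2, where 1 of 2 arrays was above the threshold, it was 1.98-fold lower with the offset (log2 fold change -0.99 ± 0.22, limma adjusted p = 0.0197). With no offset the log2 fold change with shLGR5-2 was -1.59, so these folds do not rank the hairpins. LGR5 entered the test through the shCTL group alone, where it is high. The call for shLGR5-2 was lost without either shLGR5-2 array or either shCTL array, with log2 fold changes from -1.14 to -0.83. It was also lost when dim probes were not filtered out (limma adjusted p = 0.0553) and when low values were set to 1 with no offset (0.287). All 11 colon epithelial markers were above the threshold on both arrays of the shLGR5-1 and the shCTL group; on the shLGR5-2 arrays 7 were, with VIL1, CEACAM5, LGALS4 and KRT20 below it on both. Of 7 fibroblast markers 1 was above the threshold in each group, and of 6 endothelial markers 0, while of 6 leukocyte markers CD68 was above it in each group, joined by CD14 in both hairpin lines and LCP1 with shLGR5-2. Of 5 hepatocyte markers ALB, TTR and SERPINA1 were above it with shLGR5-2, against ALB alone with shLGR5-1 and in shCTL, with summed intensities of 91.9 to 138.4, 101.7 to 215.9 and at most 61.7. The summed intensity of the epithelial markers was 53312.9 to 53861.9 with shLGR5-2, 46491.6 to 47214.3 with shLGR5-1 and 43060.1 to 43547.8 in shCTL, and that of the leukocyte markers was 321.6 to 339.7, 1336.1 to 1489.3 and 1143.5 to 1209.8 in the same groups. The part of these shifts in the transferase results was not tested.

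The glutathione S-transferases differed between the hairpins, as most genes tested did. Set directly against each other, the hairpins differed for 73.3% of all genes tested (limma adjusted p below 0.05). Among genes above the threshold on all 6 arrays, that comparison called 8 of the 9 described here and 6469 of 7975. Of the 9 genes above the threshold on all 6 arrays, 0 rose and 5 fell with shLGR5-2, and 7 rose and 1 fell with shLGR5-1. The other gene, GSTM3, was above the threshold with shLGR5-2 alone, so that it entered the test through the group where it is high, and its call as higher there is not counted as support. MGST1 fell with each hairpin. Many genes changed in these cells: with shLGR5-2, 44.2% of all genes tested were called (21.6% higher and 22.6% lower), and with shLGR5-1, 71.8% (40.3% higher and 31.5% lower). Genes with a probe above the threshold on all 6 arrays, as these 9 have, were called more often. In a fit of the 7975 such genes, 4400 were called with shLGR5-2 (2349 higher and 2051 lower). With shLGR5-1, 6520 were called (4273 higher and 2247 lower). Beside that set, the 5 of 9 genes called with shLGR5-2 and the 8 of 9 called with shLGR5-1 are not far from the shares. The median log2 fold change of the 10 genes, GSTM3 included, was -0.49 with shLGR5-2 and 0.60 with shLGR5-1. Over all genes tested it was -0.0028 and 0.28. Most of the 10 genes span under 30 kb. Among genes above the threshold on all arrays, the shLGR5-1 median was 0.77 for spans under 10 kb and 0.60 from 10 to under 30 kb. From 30 to under 100 kb it was 0.15, and -0.08 from 100 kb up. With shLGR5-2 these medians were 0.01, 0.03, 0.10 and 0.06. The 0.60 of the 10 genes is thus close to or below the medians of the spans under 30 kb. The comparisons of each hairpin with shCTL share the shCTL arrays. The arrays of 9 of the 10 genes did not overlap between shLGR5-2 and shCTL, as for 78.0% of all genes, and likewise 9 between shLGR5-1 and shCTL, as for 86.6% of all genes. Without shCTL replicate 1, or without replicate 2, fewer of the 10 genes and fewer of all genes tested were called with shLGR5-1.

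**Figure D1:**
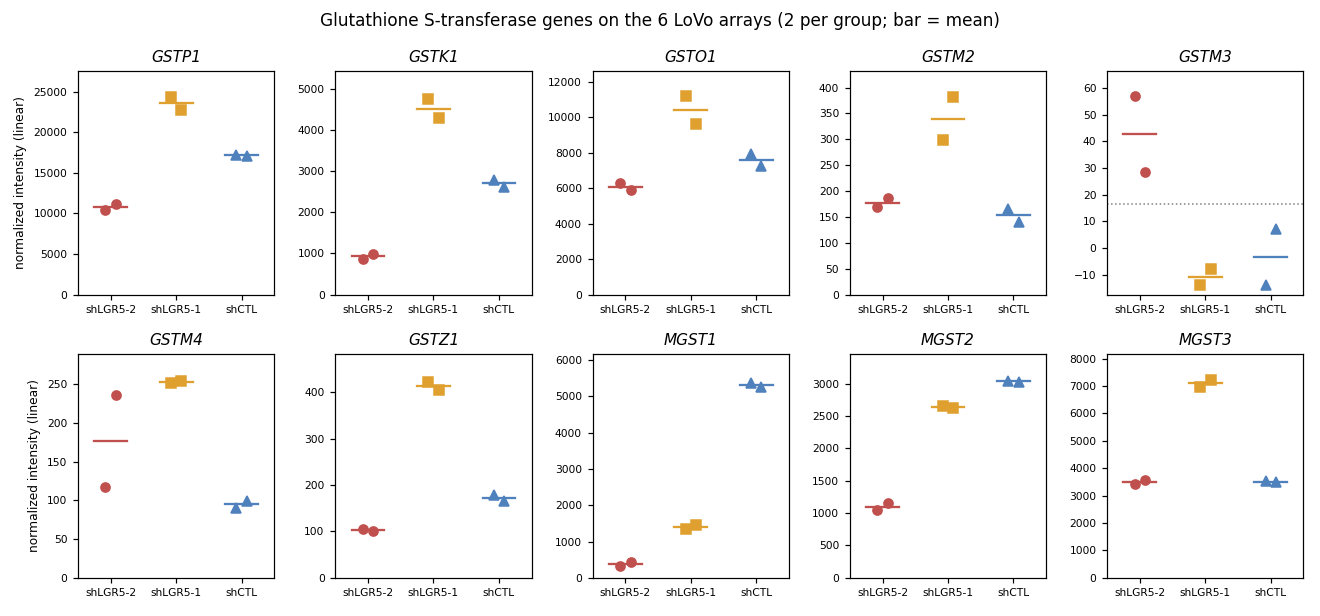
Normalized intensity (linear axis from 0, or from below 0 for GSTM3) of the probe that stands for each gene, on the 2 arrays of shLGR5-2 (circles), shLGR5-1 (squares) and shCTL (triangles), with a bar at the group mean. The shLGR5-1 arrays are highest for GSTP1, GSTK1, GSTO1, GSTM2, GSTM4, GSTZ1 and MGST3, the shCTL arrays are highest for MGST1 and MGST2, and the dotted line in the GSTM3 panel is the noise threshold of 16.5.

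Of the 9 genes above the threshold on all 6 arrays, the membrane enzyme MGST1 had the largest change with each hairpin; the change of GSTM3 is known only as a lower bound and cannot be ranked. MGST1 is a trimeric enzyme of the endoplasmic reticulum and outer mitochondrial membrane that conjugates electrophiles and reduces lipid hydroperoxides. Its brightest probe read 336.3 and 448.3 with shLGR5-2, 1335.1 and 1451.9 with shLGR5-1, and 5353.1 and 5248.6 in shCTL. The 3 groups did not overlap. In bulk RNA, fewer cells that express a gene and less of its RNA per cell cannot be told apart. MGST1 fell 13.1-fold with shLGR5-2 (log2 fold change -3.72 ± 0.17, SE, limma adjusted p = 0.000181) and 3.78-fold with shLGR5-1 (-1.92 ± 0.17, limma adjusted p = 0.000547). The step between the hairpins was itself called, with shLGR5-2 3.48-fold below shLGR5-1 (-1.80 ± 0.17, limma adjusted p = 0.000541).

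MGST1 has 4 probes, annotated to different transcript records, and 3 were measurable. The probe for NM_020300 read 67.8 and 44.8 with shLGR5-2, averaged 255.7 with shLGR5-1, the higher array at 261.4, and read 770.9 and 937.6 in shCTL, and its folds were close to those of the brightest probe, 12.1 and 3.19 lower with shLGR5-2 and shLGR5-1. The probe for NM_145791 read 19.8 and 38.9 with shLGR5-2, 155.2 and 162.7 with shLGR5-1, and 212.6 and 195.7 in shCTL. It fell 4.96-fold with shLGR5-2, but with shLGR5-1 its log2 fold change of -0.33 ± 0.23 did not pass the test (limma adjusted p over all measurable probes = 0.262, 95% interval -0.92 to 0.26). The difference between the probes was not tested. Between the hairpins all 3 probes gave similar steps, of -1.80, -1.93 and -1.98 on the log2 scale.

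MGST2, a microsomal enzyme that can make leukotriene C4, fell with shLGR5-2 and was not called with shLGR5-1. It read 1040.9 and 1161.3 with shLGR5-2, 2661.5 and 2620.0 with shLGR5-1, and 3045.9 and 3030.5 in shCTL. The 3 groups did not overlap, with shCTL highest. With shLGR5-2 MGST2 fell 2.74-fold (log2 fold change -1.45 ± 0.11, SE, limma adjusted p = 0.000843), and with shLGR5-1 it was at -0.20 ± 0.11 (95% interval -0.49 to 0.09, limma adjusted p = 0.169). The hairpins differed 2.38-fold, shLGR5-2 being lower (limma adjusted p = 0.000513).

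MGST3, the third microsomal enzyme, which has glutathione peroxidase activity toward lipid hydroperoxides, was higher on the shLGR5-1 arrays alone. It read 3434.9 and 3576.7 with shLGR5-2, 6984.7 and 7238.5 with shLGR5-1, and 3521.5 and 3486.5 in shCTL. The shLGR5-2 arrays lay on either side of the controls. With shLGR5-1 MGST3 rose 2.02-fold (log2 fold change 1.02 ± 0.11, SE, limma adjusted p = 0.000882), and with shLGR5-2 the 95% interval of its log2 fold change was -0.27 to 0.27 (limma adjusted p = 0.998). The 3 membrane enzymes thus had 2 different orders of the groups: shCTL, shLGR5-1, shLGR5-2 from highest to lowest for MGST1 and MGST2, and shLGR5-1 highest for MGST3.

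**Figure D2:**
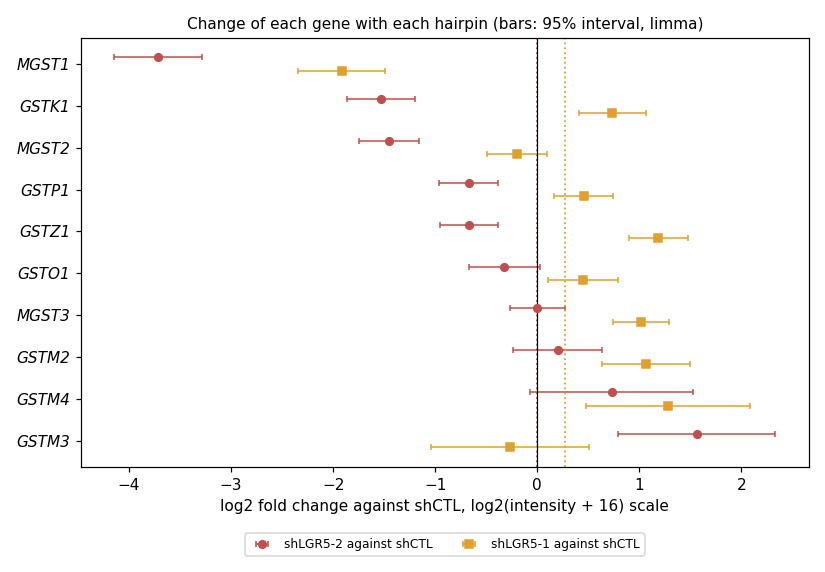
Log2 fold change against shCTL of each gene with shLGR5-2 (circles) and shLGR5-1 (squares), on the log2(intensity + 16) scale, with 95% intervals from the limma fit and a dotted line in each colour at the median of all genes tested. MGST1 is far left with both hairpins, while GSTK1, GSTP1 and GSTZ1 lie left of 0 with shLGR5-2 and right of 0 with shLGR5-1.

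GSTK1, GSTP1 and GSTZ1 changed in opposite directions, falling with shLGR5-2 and rising with shLGR5-1. GSTK1, the kappa enzyme of mitochondria and peroxisomes, read 870.4 and 982.2 with shLGR5-2, 4744.4 and 4281.2 with shLGR5-1, and 2789.5 and 2607.5 in shCTL. No 2 groups overlapped. GSTK1 fell 2.88-fold with shLGR5-2 (log2 fold change -1.53 ± 0.13, SE, limma adjusted p = 0.00102) and rose 1.67-fold with shLGR5-1 (0.74 ± 0.13, limma adjusted p = 0.00476). The hairpins differed 4.81-fold, the widest such gap among the 9 genes above the threshold on all 6 arrays (-2.27 ± 0.13, limma adjusted p = 0.000144).

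GSTP1, the pi-class enzyme, which also binds the stress kinase JNK, read 10394.0 and 11113.7 with shLGR5-2, 24361.1 and 22723.0 with shLGR5-1, and 17220.1 and 17055.0 in shCTL. Each hairpin's arrays lay wholly on its own side of the controls. GSTP1 fell 1.59-fold with shLGR5-2 (log2 fold change -0.67 ± 0.11, SE, limma adjusted p = 0.00804) and rose 1.37-fold with shLGR5-1 (0.46 ± 0.11, limma adjusted p = 0.0155). The rise was not called in some reduced sets of arrays: its limma adjusted p was 0.0592 to 0.0629 without shCTL replicate 1, shCTL replicate 2 or shLGR5-1 replicate 1. The highest value of any probe on an array was 29226.6, not far above the GSTP1 values with shLGR5-1.

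GSTZ1, the zeta enzyme, acts as maleylacetoacetate isomerase in tyrosine breakdown. Its brighter probe read 105.4 and 100.3 with shLGR5-2, 422.8 and 404.9 with shLGR5-1, and 179.7 and 166.1 in shCTL. Again the groups did not overlap. GSTZ1 fell 1.59-fold with shLGR5-2 (log2 fold change -0.67 ± 0.11, SE, limma adjusted p = 0.00807) and rose 2.28-fold with shLGR5-1 (1.19 ± 0.11, limma adjusted p = 0.000663). Its dimmer probe read 14.9 and 50.1 with shLGR5-2, 87.7 and 126.1 with shLGR5-1, and 76.4 and 93.7 in shCTL. That probe passed neither test against shCTL (limma adjusted p over all measurable probes = 0.0813 with shLGR5-2 and 0.585 with shLGR5-1), with the same signs, and was called between the hairpins (-1.43 ± 0.40, limma adjusted p = 0.0275).

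GSTO1, the omega enzyme, reduces dehydroascorbate and removes glutathione from proteins. Its brighter probe read 6276.7 and 5886.5 with shLGR5-2, 11201.4 and 9609.2 with shLGR5-1, and 7950.1 and 7258.7 in shCTL. The groups did not overlap on this probe, though the shLGR5-1 arrays were spread. With shLGR5-1 GSTO1 rose 1.36-fold (log2 fold change 0.45 ± 0.13, SE, limma adjusted p = 0.0303), and with shLGR5-2 it was at -0.32 ± 0.13 (95% interval -0.67 to 0.02, limma adjusted p = 0.112). The rise lost its call when each array was centred on its median (0.33, limma adjusted p = 0.0776) and without shCTL replicate 1, shCTL replicate 2 or shLGR5-1 replicate 1 (adjusted p 0.0676 to 0.127). The other probe read 4059.7 and 4958.1 with shLGR5-2, 7258.7 and 6540.4 with shLGR5-1, and 3984.3 and 4732.6 in shCTL. On it the shLGR5-2 and shCTL arrays overlapped (log2 fold change 0.05 ± 0.17) and shLGR5-1 was 1.58-fold higher (limma adjusted p over all measurable probes = 0.0224).

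The mu-class genes GSTM2, GSTM3 and GSTM4 lie in a cluster on chromosome 1 and encode closely related detoxifying enzymes. GSTM2 read 169.1 and 186.4 with shLGR5-2, 299.1 and 381.2 with shLGR5-1, and 166.0 and 140.2 in shCTL. It rose 2.10-fold with shLGR5-1 (log2 fold change 1.07 ± 0.17, SE, limma adjusted p = 0.00329), and with shLGR5-2 it was at 0.20 ± 0.17 (95% interval -0.23 to 0.63, limma adjusted p = 0.381). A further GSTM2 probe did not exceed the threshold on any array.

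GSTM4 was described differently by its 2 probes under shLGR5-2. The probe for NM_000850 read 117.3 and 236.7 with shLGR5-2, 252.1 and 254.6 with shLGR5-1, and 90.0 and 99.6 in shCTL. The probe for NM_147148 read 106.8 and 119.3 with shLGR5-2, 253.8 and 225.7 with shLGR5-1, and 129.3 and 148.8 in shCTL. With shLGR5-1 both were higher than in shCTL, GSTM4 rising 2.43-fold on the first (log2 fold change 1.28 ± 0.31, SE, limma adjusted p = 0.0150) and by 0.72 ± 0.15 (log2) on the other (limma adjusted p over all measurable probes = 0.00950). With shLGR5-2 neither passed, at 0.73 ± 0.31 and -0.26 ± 0.15, with opposite signs. The first value rests on 1 array: without shLGR5-2 replicate 1 it was 1.19 (limma adjusted p = 0.0113). The rise with shLGR5-1 was not called without shCTL replicate 1 or 2 (limma adjusted p = 0.0836 and 0.0668) or with no filter on dim probes (0.0513).

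GSTM3 was measurable with shLGR5-2 alone. It read 56.9 and 28.4 with shLGR5-2, -13.8 and -7.7 with shLGR5-1, and -13.9 and 7.2 in shCTL. Both shLGR5-2 arrays lay above all others, and they alone took the gene through the filter on dim probes. As a description, shLGR5-2 was at least 2.44-fold higher than shCTL and at least 2.44-fold higher than shLGR5-1. In the fit with no filter, the limma adjusted p was 0.0438 against shCTL and 0.0169 against shLGR5-1. There too the values below 0 were set to 0, which leaves a replicate gap of 0.0 with shLGR5-1. The spread behind these p-values is thus partly set by the floor, and they are not counted as support. In the filtered fit the call against shCTL was lost when shCTL replicate 1 was dropped (limma adjusted p = 0.0746) and when low values were set to 1 and no offset was added (0.0524).

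Probes of related mu-class genes could detect each other's transcripts, and probe sequences were not used here. GSTM1, named after its values were seen, lies beside GSTM2. Its brightest probe read 737.0 and 803.7 with shLGR5-2, 1802.4 and 1708.1 with shLGR5-1, and 1158.7 and 1046.8 in shCTL. GSTM1 rose 1.58-fold with shLGR5-1 (limma adjusted p = 0.00556), as the GSTM2 and GSTM4 probes did, and fell 1.42-fold with shLGR5-2 (limma adjusted p = 0.0245), where the GSTM2 probe was not called. A further GSTM1 probe read 272.0 and 275.8 with shLGR5-2, 676.8 and 668.8 with shLGR5-1, and 310.0 and 306.5 in shCTL. That probe rose 2.12-fold with shLGR5-1 (limma adjusted p over all measurable probes = 0.00133) and, like the GSTM2 probe, was not called with shLGR5-2 (log2 fold change -0.16 ± 0.12, limma adjusted p = 0.332).

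**Figure D3:**
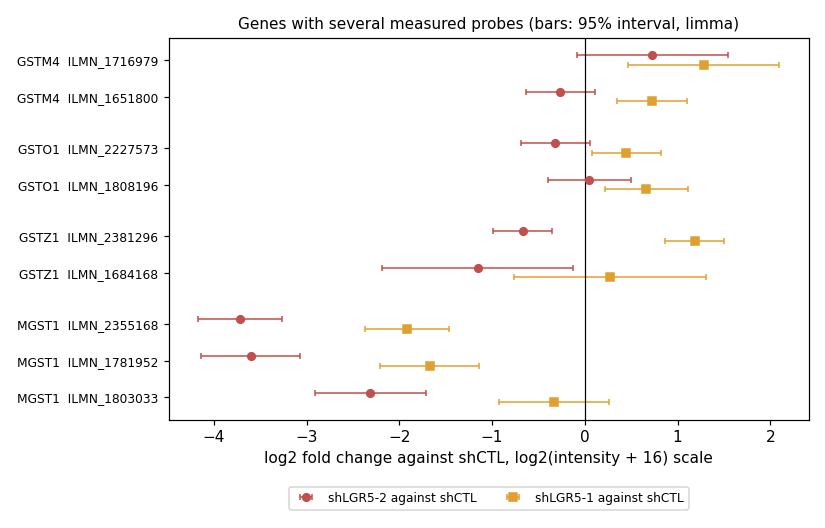
Log2 fold change against shCTL for each measurable probe of GSTM4, GSTO1, GSTZ1 and MGST1, with shLGR5-2 as circles and shLGR5-1 as squares, on the log2(intensity + 16) scale with 95% intervals from the limma fit over all measurable probes. All 3 MGST1 probes lie left of 0 with shLGR5-2, whereas the 2 GSTM4 probes lie on opposite sides of 0 there.

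Over the 15 measurable probes, 1 was higher and 7 lower with shLGR5-2, where the fit over all measurable probes called 35.8% of 21792 probes (17.8% higher and 18.0% lower). With shLGR5-1, 9 were higher and 2 lower, against 63.3% of all measurable probes (35.4% higher and 27.9% lower). Between the hairpins, shLGR5-2 minus shLGR5-1, 1 was higher and 13 were lower, against 65.9% of all measurable probes (35.9% lower). The probe that was higher in these comparisons with shLGR5-2 is that of GSTM3, which passed the filter through that group. At the level of genes, with the hairpins set directly against each other, shLGR5-2 was lower than shLGR5-1 for 8 of the 9 genes above the threshold on all 6 arrays and higher for 0. That comparison called 73.3% of all genes (33.6% higher and 39.8% lower). In the fit of the 7975 genes with a probe above the threshold on all 6 arrays, it called 6469 (2503 higher and 3966 lower). The arrays of all 10 genes did not overlap between the hairpins, as for 86.6% of all genes. GSTM4 was not called there (log2 difference -0.55 ± 0.31, 95% interval -1.35 to 0.25, limma adjusted p = 0.165). Its other probe was called, at -0.99 ± 0.15 (limma adjusted p over all measurable probes = 0.00315), as was the mean of its probes, at -0.77 (limma adjusted p = 0.0188). For the first probe the difference was -0.09 without shLGR5-2 replicate 1 and -1.01 without shLGR5-2 replicate 2 (limma adjusted p = 0.562 and 0.00643). In order of group means, shLGR5-1 was highest for 7 genes and shLGR5-2 lowest for 6. The shLGR5-1, shCTL, shLGR5-2 order held for 4 genes, GSTP1, GSTK1, GSTO1 and GSTZ1, and the lower step was not called for GSTO1. The steps between shLGR5-2 and shCTL were not called for GSTM2, GSTM4 and MGST3, which had shLGR5-2 between the others.

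Fold changes with shLGR5-1 also went with the genomic span of a gene, and the spans of the 10 genes are therefore given. GSTP1 spans 2.8 kb, the shortest, and 8 of the 10 are under 30 kb, while MGST2 spans 88.8 kb and MGST1 246.2 kb. Among 7932 genes above the threshold on all arrays, the median log2 fold change with shLGR5-1 was 0.77 for spans under 10 kb, 0.60 from 10 to under 30 kb, 0.15 from 30 to under 100 kb and -0.08 from 100 kb up. The rises of GSTP1 (0.46), GSTK1 (0.74) and GSTO1 (0.45) thus lay below the median of short genes of their span class, and those of GSTM2, GSTM4, GSTZ1 and MGST3 (1.02 to 1.28) above it. MGST1, at -1.92, lay below its class. With shLGR5-2 the same 4 medians were 0.01, 0.03, 0.10 and 0.06. Between the hairpins, shLGR5-2 minus shLGR5-1, they were -0.75, -0.51, 0.04 and 0.31. The part of span in these results was not tested.

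The log2 range of group means of GSTM3 depends on how low values are treated. It was 1.83 with the offset of 16. Its step between the hairpins was 5.33 with low values set to 1 and no offset. By fitted log2 values with the offset of 16, MGST1 and GSTK1 had the widest ranges of group means. The genes most like these 2 were sought among 7933 genes above the threshold on all 6 arrays, by Pearson's r over the 6 arrays, which fall into 3 groups of 2. For MGST1 these were GDF15, a stress-induced cytokine gene (r = 0.9985), LCN2, a secreted iron-siderophore binding protein gene (0.9981), and RNU1-3 (0.9972). GDF15 had smaller folds, with log2 fold changes of -2.01 with shLGR5-2 and -1.04 with shLGR5-1. For GSTK1 they were PHB2, a prohibitin gene (0.9992), HDDC3 (0.9991) and the O-mannosyltransferase gene POMT1 (0.9990). These correlations describe the same 6 arrays and carry no test.

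Other genes of the glutathione system are given by role. Of 22 further transferase and membrane-family genes listed, 14 were tested, with 4 higher and 4 lower with shLGR5-2 (median -0.18) and 8 higher and 3 lower with shLGR5-1 (median 0.67). Over all genes tested, 21.6% were higher and 22.6% lower with shLGR5-2, and 40.3% higher and 31.5% lower with shLGR5-1. PTGES, the inducible prostaglandin E synthase of the same membrane family as MGST1, read 175.0 and 201.6 with shLGR5-2, 372.9 and 403.1 with shLGR5-1, and 81.3 and 90.4 in shCTL. PTGES rose 2.00-fold and 3.97-fold with shLGR5-2 and shLGR5-1 (limma adjusted p = 0.00374 and 0.00028), a direction opposite to that of MGST1 with each. GSTT2B, a theta-class gene with a near-identical neighbour, was at least 3.02-fold and 2.65-fold higher with shLGR5-2 and shLGR5-1 than in shCTL (limma adjusted p = 0.00129 and 0.000742). It read -0.5 and -4.4 in shCTL and passed the filter through the hairpin groups, where it is high. Both shCTL values were set to 0, so the floor partly sets the spread. Its calls, included in the counts of this list, are not counted as support. GDAP1, a mitochondrial protein with a transferase fold, rose 5.15-fold with shLGR5-2 and fell 1.60-fold with shLGR5-1 (limma adjusted p = 0.00149 and 0.0437). GSTO2, the omega gene next to GSTO1, named after its values were seen, fell 2.08-fold with shLGR5-2 (limma adjusted p = 0.00339) and was at a log2 fold change of 0.14 ± 0.13 with shLGR5-1.

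Of 20 genes tested that supply and recycle glutathione, 3 rose and 7 fell with shLGR5-2 (median -0.30), beside 21.6% higher and 22.6% lower over all genes. With shLGR5-1, 3 rose and 10 fell (median -0.45), beside 40.3% and 31.5%. GLO1, the glyoxalase that uses glutathione to clear methylglyoxal, read 8391.3 and 8205.9 with shLGR5-2, 517.5 and 677.5 with shLGR5-1, and 6410.7 and 6558.3 in shCTL, a 10.7-fold fall with shLGR5-1 (limma adjusted p = 0.000164). IDH1, a cytosolic source of NADPH, fell 9.44-fold with shLGR5-1 (limma adjusted p = 0.000123). With shLGR5-2 OPLAH, the 5-oxoprolinase of the glutathione cycle, read 11.5 and 20.8 against 948.3 and 827.6 in shCTL, with 1 of 2 arrays above the threshold (limma adjusted p = 0.000109), and CHAC1, which degrades glutathione, fell 3.54-fold (limma adjusted p = 0.000657). GCLC and GCLM, the subunits of the rate-limiting enzyme of glutathione synthesis, were named after their values were seen. GCLC read 474.6 and 515.7 with shLGR5-2, 156.1 and 117.8 with shLGR5-1, and 1498.2 and 1503.7 in shCTL, and fell 2.97-fold and 10.0-fold with shLGR5-2 and shLGR5-1 (limma adjusted p = 0.00174 and 0.000169). GCLM fell 1.63-fold with shLGR5-1 (limma adjusted p = 0.00575) and was at -0.35 ± 0.13 with shLGR5-2.

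The peroxide-removing enzymes had 9 genes tested, of which 5 rose and 1 fell with shLGR5-2 (median 0.72) and 6 rose and 1 fell with shLGR5-1 (median 0.55). The shares of all genes that were higher were 21.6% with shLGR5-2 and 40.3% with shLGR5-1, and those lower 22.6% and 31.5%. GPX2, the intestinal glutathione peroxidase, read 63.2 and 15.8 with shLGR5-2, 10186.7 and 9431.7 with shLGR5-1, and 8137.6 and 7770.0 in shCTL. It fell with shLGR5-2, where 1 of 2 arrays was above the threshold (log2 fold change -7.31 ± 0.43, limma adjusted p = 0.000379). GPX8, a peroxidase of the endoplasmic reticulum, rose 18.3-fold with shLGR5-2 (limma adjusted p = 0.000612), and PRDX3, the mitochondrial peroxiredoxin, fell 4.68-fold with shLGR5-1 (limma adjusted p = 0.000303). GPX3, the secreted peroxidase, rose 3.15-fold and 2.98-fold with shLGR5-2 and shLGR5-1 (limma adjusted p = 0.00187 and 0.000993), with 1 of 2 shCTL arrays above the threshold.

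Export and further processing of the conjugates had 8 of 21 listed genes tested, with 2 higher and 2 lower with shLGR5-2 and 5 higher and 2 lower with shLGR5-1, where 44.2% and 71.8% of all genes were called. ABCC4, an efflux pump gene, read 598.2 and 595.4 with shLGR5-2, -11.4 and 12.6 with shLGR5-1, and 316.6 and 387.5 in shCTL, and was at least 21.3-fold lower with shLGR5-1 (limma adjusted p = 0.000351). ACY3, an acylase that acts on mercapturates, was at least 2.31-fold lower with shLGR5-2 (limma adjusted p = 0.000399). It rose 2.55-fold with shLGR5-1 (limma adjusted p = 0.00042). ACY3 read -5.1 and -21.3 with shLGR5-2, both set to 0, so the spread behind its p-values is partly set by the floor. ACY1 moved the same way, 2.18-fold lower with shLGR5-2 and 1.31-fold higher with shLGR5-1 (limma adjusted p = 0.0021 and 0.0338).

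NFE2L2, which encodes NRF2, read 2013.9 and 1515.8 with shLGR5-2, 85.7 and 119.9 with shLGR5-1, and 2133.6 and 2008.5 in shCTL. It fell 17.7-fold with shLGR5-1 (log2 fold change -4.15 ± 0.21, SE, limma adjusted p = 0.000183) and was at -0.24 ± 0.21 with shLGR5-2 (limma adjusted p = 0.398). Of 17 NRF2 regulators and targets tested, 7 rose and 3 fell with shLGR5-2 (median -0.03) and 11 rose and 6 fell with shLGR5-1 (median 0.46), where all genes were 21.6% higher and 22.6% lower with shLGR5-2, and 40.3% higher and 31.5% lower with shLGR5-1. TXNRD1, the cytosolic thioredoxin reductase, fell 9.37-fold with shLGR5-1 (limma adjusted p = 0.000145). The aldo-keto reductase AKR1C3 fell 38.3-fold and 2.46-fold with shLGR5-2 and shLGR5-1 (limma adjusted p = 4.1e-05 and 0.000481). AKR1C2, a close relative whose probe could detect AKR1C1, read -2.9 and -4.8 with shLGR5-2, below the threshold, against 887.4 and 761.3 in shCTL. It fell 2.00-fold with shLGR5-1 (limma adjusted p = 4.1e-05 with shLGR5-2 and 0.00149 with shLGR5-1). Both shLGR5-2 values were set to 0, so the spread behind the AKR1C2 p-values is partly set by the floor. NQO1, a quinone reductase named after its values were seen, rose 12.5-fold and 2.06-fold with shLGR5-2 and shLGR5-1 (limma adjusted p = 7.9e-05 and 0.00116).

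**Figure D4:**
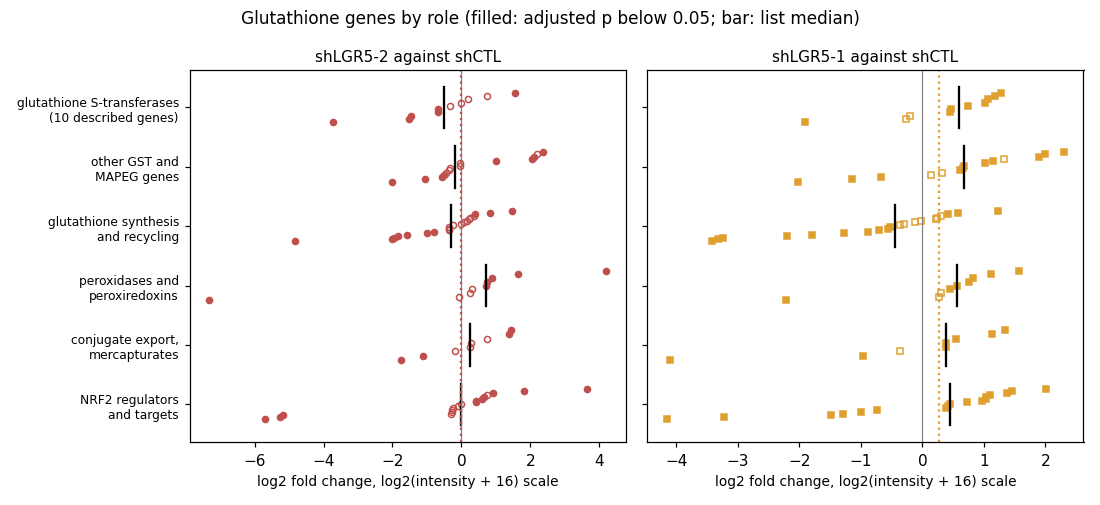
Log2 fold change against shCTL of every tested gene in the 10 described transferases and in 5 lists of related genes, with shLGR5-2 in the left panel and shLGR5-1 in the right, on the log2(intensity + 16) scale. Filled points passed limma's test at an adjusted p below 0.05, bars mark list medians and the dotted line is the median of all genes tested, and the transferase median is -0.49 in the left panel and 0.60 in the right.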

How the data were processed

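RNA from 6 samples of LoVo cells, 2 in each of 3 groups taken from the sample titles, was measured on Illumina bead arrays. The submitters' processing notes name GenomeStudio without a version. The deposited values are linear intensities that the authors had already background-subtracted and quantile-normalized, as the values show: 30.5% of all values lie below 0 and arrays differ by at most 0.7 at any rank. A further 12 columns were left aside, since nothing in the labels ties their names to a sample. No 2 arrays held the same values, and no slide or scan date was available to test as a batch. The number of arrays limits the precision.

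Values below 0 were set to 0, 16 was added and log2 taken, which understates the change of dim genes. A group with both arrays below 0 then has no spread, which partly sets the p-values of such genes. The threshold, 1.645 times the noise SD of 10.0 (root mean square of the values below 0), left 21792 probes, those exceeding it on each array of some group. Names came through the platform annotation and a RefSeq table (GRCh38.p14): 30113 had 1 gene, 8 several and 17202 none listed. The kept probe with the highest mean stood for a gene. All 6 arrays entered 1 limma fit (version 3.58.1 in R 4.3.3; 3 residual and 2.01 prior degrees of freedom) with group as its term, p-values being two-sided and Benjamini-Hochberg adjusted over 12111 genes; a second fit took every kept probe. The fit was also run on simulated data, with independent noise and few genes changed. That run does not cover the wide changes or the values set to 0 seen here. Where a group was below the threshold on both arrays, "at least" folds set its values to the threshold, without the offset. The 95% intervals are for single genes.

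The 10 genes and the gene lists were chosen with earlier results of these data known. From each list, the 2 genes with the smallest adjusted p for each hairpin are named, and others are marked. Alternatives changed the offset, filter, scaling, choice of probe, spread model and replicate block and left out each array in turn.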

Additional observations from a re-analysis of the deposited data

Results flagged for a closer look

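Results are given here because the effects of the hairpins differed by the direct test between them (limma, adjusted p below 0.05), in a comparison that called 73.3% of all genes tested. As fitted log2 differences, shLGR5-2 minus shLGR5-1, the transferases gave -1.13 for GSTP1, -2.27 for GSTK1, -0.77 for GSTO1, -0.87 for GSTM2, -1.85 for GSTZ1, -1.80 for MGST1, -1.25 for MGST2 and -1.02 for MGST3. Among the other named genes, those lower with shLGR5-2 than with shLGR5-1, in alphabetical order, were ACY1 (-1.51), AKR1C3 (-3.96), CHAC1 (-2.05), GSTM1 (-1.17), GSTO2 (-1.19) and PTGES (-0.99). With 1 of 2 shLGR5-2 arrays above the threshold, GPX2 (-7.61) and OPLAH (-4.46) were also lower. Those higher were GCLC (1.75), GDAP1 (3.04), GLO1 (3.77), GPX8 (3.92), IDH1 (2.88), NFE2L2 (3.91), NQO1 (2.60), PRDX3 (2.54) and TXNRD1 (2.96).

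For 5 genes a group lay below the threshold on both arrays, so the fitted log2 difference depends on the offset and only a bound can be read. With shLGR5-1 below the threshold, ABCC4 (fitted 4.84) was at least 36.3-fold higher with shLGR5-2. GSTM3 (fitted 1.83, and 0.87 to 5.33 over the alternatives) was at least 2.44-fold higher there and had passed the filter through shLGR5-2. With shLGR5-2 below the threshold, AKR1C2 (fitted -4.71) was at least 24.5-fold lower and ACY3 (fitted -3.10) at least 7.39-fold lower. LGR5 (fitted 0.72) has no bound above 1, and its call ended in 9 of 14 alternatives.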

How the results depend on the processing

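Over 15 alternatives, 447 values of the 10 genes in 3 comparisons were recomputed; 428 kept their direction and their side of the threshold, 12 lost a call, 4 gained a call and 3 changed sign. The 3 were MGST3 with shLGR5-2, whose main value is near 0: -0.03 with arrays centred, -0.03 without shLGR5-2 replicate 2 and -0.01 without shCTL replicate 2, the range with 1 array left out being -0.03 to 0.03. Other filters, the spread model, the replicate block and the probe-by-probe fit left the fold changes as they were. So did leaving out an array of the group not compared. Those settings bear on the p-values alone. GSTM3 with shLGR5-1, at -4.44e-16 without shCTL replicate 2, is no change but is counted as keeping its direction. The number of the 10 genes called lay between 5 and 7 with shLGR5-2, 5 and 8 with shLGR5-1 and 9 and 10 between the hairpins when 1 array was left out. Over all genes those ranges were 3148 to 5917, 7157 to 8555 and 7814 to 8580. Tested probe by probe, 7812 probes were called with shLGR5-2, 13792 with shLGR5-1 and 14357 between the hairpins, from more features. Centring each array moved the median of all genes with shLGR5-1 from 0.28 to 0.16 and ended 1 call, that of GSTO1.

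Arrays that share a replicate number did not deviate together (correlations of deviations 0.0021 to 0.017), so the numbers were not taken to pair them. With the replicate block, 6, 8 and 9 of the 10 genes and 4911, 8578 and 8764 of all genes were called with shLGR5-2, with shLGR5-1 and between the hairpins. Here and with 1 array left out, the counts with shLGR5-2 and between the hairpins include GSTM3 where it was called. That gene passed the filter through shLGR5-2, and its call is not counted as support. Values near the threshold of 16.5, such as those of GSTM3, limit what can be said of absent expression.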

Other observations

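GSTA2, an alpha-class transferase named after its values were seen, differed between arrays of the same line. It read 534.3 and 74.1 with shLGR5-2, 8.1 and 605.7 with shLGR5-1, and 38.1 and 28.3 in shCTL, so that 1 array of each hairpin line was far above its replicate. Neither comparison with shCTL passed the test (limma adjusted p = 0.344 with shLGR5-2 and 0.516 with shLGR5-1), with an SE of 1.70.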
